A study of Mus musculus with 10 samples.

Results

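Kinesins are motor proteins that use ATP to move along microtubules or to take them apart. Mitotic kinesins build and elongate the spindle, move chromosomes and cut the cell apart at cytokinesis. Transport kinesins carry vesicles, organelles and mRNA, above all along axons, and ciliary kinesins move cargo into the primary cilium or set its length. On mRNA, m6A (N6-methyladenosine) is written by a methyltransferase complex that contains Mettl14, and it is best known for shortening the life of the transcripts that carry it. It is often found near stop codons, in long internal exons and in 3' untranslated regions. The m6A peaks of the kinesin genes were examined in cultured neural progenitor cells, dividing cells that also bear a cilium and can become neurons.

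The kinesin genes were chosen by symbol, as RefSeq protein-coding genes named Kif followed by a number and at most the letter a, b or c. This gave 38 of 21900 protein-coding genes, and the deposited list held 21195 m6A peaks in all. A peak was credited to a gene if they overlapped by at least 50% of the shorter one, on the strand that held more immunoprecipitation (IP) reads. By this rule 58 peaks lay in kinesin genes, and 57 of them lay wholly inside the gene span. The members were then sorted by their known roles into 12 mitotic, 12 transport, 9 ciliary and 5 other kinesins. This choice used no measured value, but it was made with earlier results of these data known. Kif3a and Kif3b, which serve both in cilia and in other transport, were counted as ciliary.

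The cells came from the hypothalamus of E14.5 (embryonic) mice with a floxed Mettl14 gene (Mettl14 f/f) and grew with FGF2 and EGF at 20 ng/ml each. Lentivirus with EGFP and Cre recombinase gave Mettl14 knockout cells, lentivirus with EGFP alone gave control cells, and EGFP-positive cells were sorted after 72 hours. The labels list 4 control and 4 knockout m6A IP libraries and 1 input library of each genotype, and do not say whether the replicates are separate cultures. The files name no library or genotype, so every value below is pooled over libraries that are not named, has no replicate error, and says nothing about the knockout.

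A peak shows that a transcript was present and enriched by the antibody, and the lack of a peak does not show that the gene was silent. Of the progenitor markers on the list used, 8 of 10 had a peak (all but Fabp7 and Vim), and of the hypothalamic markers 3 of 5 did (Tbx3, Six3 and Nkx2-1, but neither Rax nor Six6). Of 6 neuronal markers Map2, Tubb3 and Rbfox3 had peaks, and none of 8 microglial, vascular, blood and mesenchymal markers did. Over all protein-coding genes this share was 44.2%, so the counts for hypothalamic and neuronal markers, 60% and 50%, are not far from it. Kinesin peaks had from 30 to 7007 input reads and from 50 to 20483 IP reads, with medians of 564.5 and 1215.5, against 466 and 864 over all peaks. The depth of single libraries was unknown.

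Peaks were found in 29 of the 38 kinesin genes (76.3%), against 44.2% of all protein-coding genes by the same rule. Mitotic kinesins had a peak in 11 of 12 genes, transport kinesins in 10 of 12, ciliary kinesins in 6 of 9, and the other kinesins in 2 of 5. Kinesin genes are long, with a median span of 47.5 kb against 17.1 kb for all protein-coding genes, and over all genes the share with a peak rose from 24.5% under 10 kb to 70.9% above 100 kb. Among genes of 30 to 100 kb, 15 of 20 kinesins and 58.1% of all genes had a peak. Among genes of 10 to 30 kb this was 6 of 7 kinesins and 47.3% of all genes. Above 100 kb the kinesin share, 7 of 9, stood beside those 70.9%, and all 6 transport kinesins of that length had a peak.

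**Figure D1:**
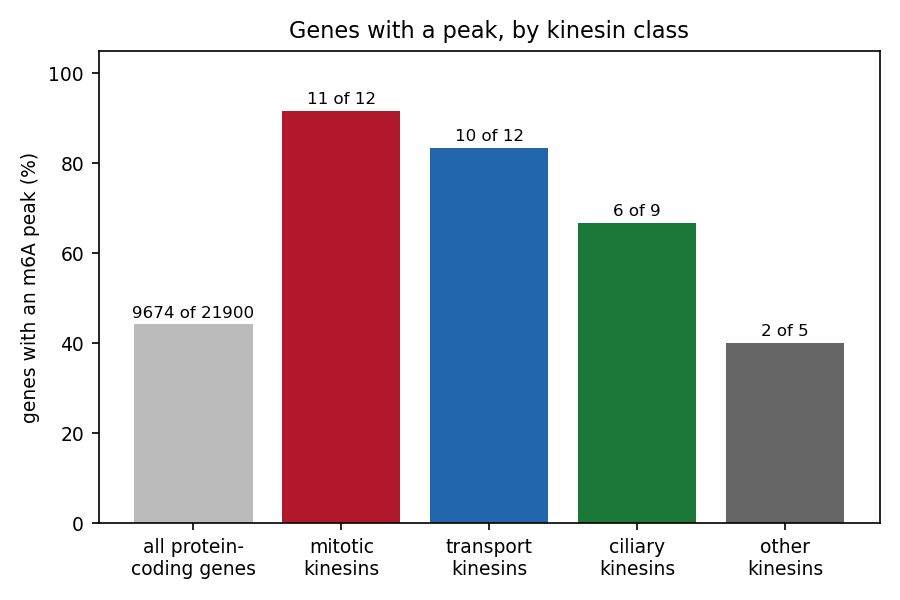
Bars give the percent of genes with at least 1 m6A peak (y axis, from 0) for all protein-coding genes and for each kinesin class, with the counts above each bar. Mitotic kinesins reach 11 of 12 and transport kinesins 10 of 12, above the 44.2% of all genes, while the 5 other kinesins have 2.

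Peak strength is the log2 fold change of IP over input in the authors' deposited table, called enrichment from here on. The ratio of IP to input reads, given below for many peaks, orders some genes differently. For the strongest peak of a gene its median over all genes with a peak was 3.51 in the authors' deposited table. For the kinesins this median was 3.15 in the authors' deposited table, with a range from 0.62 in Kif26a to 4.48 in Kif3a. The median of all genes was exceeded by 8 of the 29, a share that is 50% over all genes by construction. An enrichment over 4 was reached by 5 kinesins, against 30.6% of all genes with a peak, and one of at least 2 by 25, against 93.1%. The share of kinesin genes with a peak was thus above that of all genes. Among genes with a peak, the share with a strong peak was below it, and neither difference was tested. Counted over genes with or without a peak, 5 of 38 kinesins and 2964 of 21900 protein-coding genes had an enrichment over 4, so the kinesin share was then not clearly lower. The medians in the authors' deposited table were 2.92 for mitotic, 3.11 for transport and 3.35 for ciliary kinesins. With peaks of at least 100 input reads alone, a choice that removes the strongest Kif3a peak, the kinesin median was only 0.04 under that of all genes (difference -0.04, against -0.36 with all peaks), and 10 of 27 genes were above it. The class medians minus that of all genes were -0.59, -0.40 and -0.16, and under the alternatives tried they ran from -0.92 to -0.16 for mitotic, from -0.45 to -0.23 for transport and from -0.52 to 0.03 for ciliary kinesins. The order of the classes was not tested and turned with the processing. When the peaks of a gene were averaged, the differences were -0.16 for mitotic, -0.34 for transport and -0.52 for ciliary kinesins, the opposite order. With Kif3a and Kif3b counted as transport kinesins they were -0.23 for transport and -0.51 for ciliary kinesins.

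**Figure D2:**
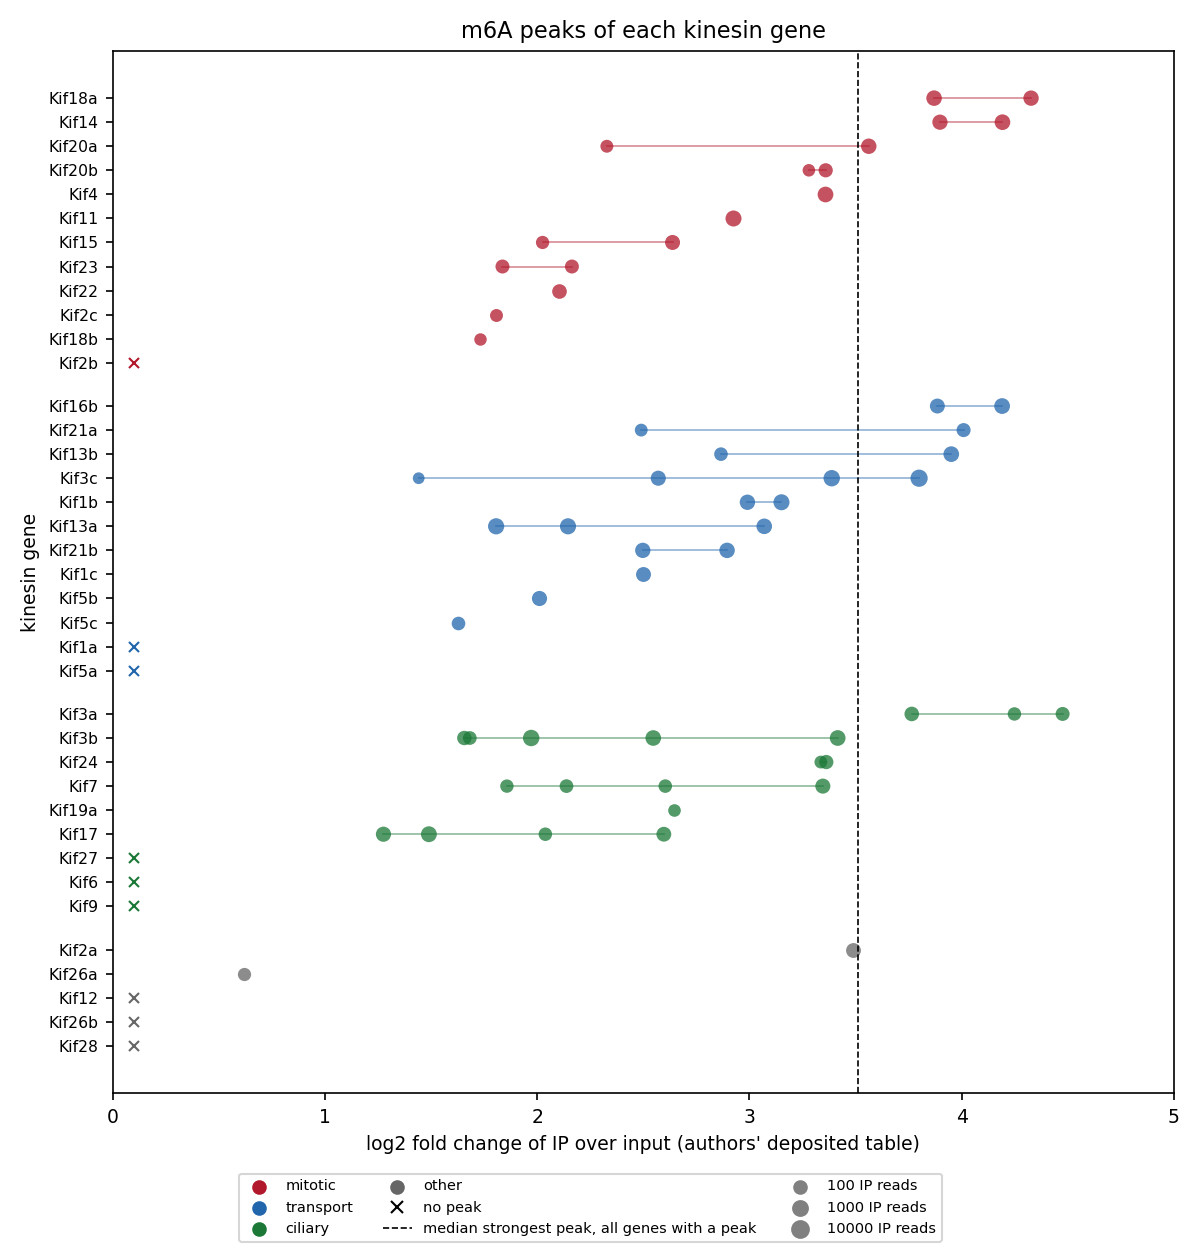
Each point is an m6A peak of the kinesin gene on the y axis, placed by its enrichment of IP over input in the authors' deposited table (x axis), with point size rising with IP reads, colour giving the class and crosses marking genes without a peak. The dashed line is the median strongest peak of all genes with a peak, 3.51, and 8 kinesins have a point to the right of it.

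Among the mitotic kinesins the motors of chromosome alignment and cytokinesis Kif18a and Kif14 carried the peaks with the highest enrichment. By the ratio of IP to input reads Kif14 stood highest at 5.16. Kif18a, at 2.85, then lay beside Kif4 at 2.87 and Kif20a at 2.81. Kif18a, which dampens the oscillations of chromosomes at the spindle equator, had a peak with 723 input reads and 2063 IP reads on chromosome 2 at 109310709 to 109334396 of GRCm38.p6. The ratio of IP to input reads was 2.85 (exact 95% interval 2.62 to 3.11), and its enrichment 4.33 in the authors' deposited table. Another Kif18a peak, at the start of the gene at 109280763 to 109287840, held 937 input reads and 2510 IP reads, with an enrichment of 3.87 in the authors' deposited table. The start peak also overlaps the gene Mettl15. So Kif18a was enriched at its start and in its interior, and neither peak had its midpoint in the last 10% of the gene. Its closest relative Kif18b, which acts on the plus ends of spindle microtubules, stood at the other end of the class by enrichment. Its only peak held 57 input reads and 96 IP reads, a ratio of 1.68 (exact 95% interval 1.20 to 2.38), with an enrichment of 1.73 in the authors' deposited table. This was lower than Kif18a by 2.60, the widest gap in enrichment between close relatives with peaks. By the ratio of reads the gap was not the widest, with 2.85 against 1.68, while Kif13b and Kif13a had 4.70 and 2.29.

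Kif14, needed for the last step of cytokinesis, likewise had peaks at the start and in the interior. The former, on chromosome 1 at 136467867 to 136471361, held 566 input reads and 2921 IP reads, a ratio of 5.16 (exact 95% interval 4.71 to 5.66), with an enrichment of 4.19 in the authors' deposited table. The latter, at 136521201 to 136528003, held 462 input reads and 1825 IP reads, a ratio of 3.95 (exact 95% interval 3.56 to 4.38), and 3.90 in the authors' deposited table. Among genes with a RefSeq start window, Kif14, Kif18a, Kif22 and Kif3b had a peak that reached into the first 50 transcribed bases. For Kif14 these bases follow a start site inside the gene span, which begins at 136466301. Only the Kif14 bases under the peak held the m6A consensus DRACH, as 2 matches, shown in capitals from the first base of the peak (RefSeq, GRCm38.p6, plus strand, 5' to 3').
Kif14 (chr1:136467867-136467896): gAAACTgaaaaGAACAaaatgcccagcacc
DRACH is short and common, and 54.4% of all start windows hold it in their 50 transcribed bases, so its presence does not place the methylated base.

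Kif20a and Kif20b, motors of the central spindle, had their strongest peaks at 3.56 and at 3.36, as the authors' deposited table lists them. The Kif20a peak held 807 input reads and 2265 IP reads, a ratio of 2.81 (exact 95% interval 2.59 to 3.05), and faces the opposite-strand gene Cdc23. That of Kif20b held 323 input reads and 561 IP reads, a ratio of 1.74 (exact 95% interval 1.51 to 2.00). Kif4, which shortens and orders the central spindle and compacts chromosomes, had a peak of 1125 input reads and 3229 IP reads at the very 3' end of the gene, at 3.36 in the authors' deposited table. The spindle-assembly motor Kif11 had its only peak at 2.92 in the authors' deposited table, on 3152 input reads and 4505 IP reads. That made it the mitotic kinesin with the most input and IP reads in a peak, and yet a gene below the median of all genes. Kif15, which can stand in for Kif11, had peaks of 2.64 and 2.03, as the authors' deposited table lists them, and in the latter the 212 IP reads fell short of the 280 input reads, a ratio of 0.757 (exact 95% interval 0.630 to 0.908). Kif23, the motor of the centralspindlin complex, had its peaks 6.64 and 6.83 kb before the 3' end of the gene, at 2.16 and at 1.84, as the authors' deposited table lists them. The weaker Kif23 peak held 492 input reads and 451 IP reads, a ratio of 0.917 (exact 95% interval 0.805 to 1.04). Kif22, which pushes chromosome arms, and Kif2c, which takes apart faulty microtubule attachments, had 2.10 and 1.81 in the authors' deposited table. The depolymerase Kif2b had no peak.

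Most mitotic kinesins also shared a short sequence around the start site, which the choice by symbol did not use. The letters TTTGAA are the core of the cell cycle genes homology region (CHR), a promoter element bound by the MuvB complex through LIN54 and known from genes of mitosis. RefSeq start windows (250 bases before to 50 after a start site) were on hand for 31 of the 38 kinesin genes. TTTGAA on either strand was found in 9 of 11 mitotic genes, in 1 of 8 transport genes (Kif1a), in 1 of 8 ciliary genes (Kif27) and in 1 of 4 others (Kif26b). It was in 20.2% of all genes with a start window (17.9% of all start windows). In 7 of the 11 mitotic windows (63.6%) it began within 20 bases of the start site, as in 2.17% of all start windows, and Kif26b was the only other kinesin with this. The motifs and the limit of 20 bases were chosen after results were seen, and the counts are a description. All 12 windows with a match are shown in 30-base runs of the gene's own strand (GRCm38.p6, 5' to 3') with the match nearest the start site and any other TTTGAA or TTCAAA letters, its reverse complement, in capitals.
Kif11 (chr19:37376351-37376380, plus strand): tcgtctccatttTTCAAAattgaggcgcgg
Kif15 (chr9:122951050-122951079, plus strand): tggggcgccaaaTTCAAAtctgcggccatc
Kif22 (chr7:127042420-127042449, minus strand): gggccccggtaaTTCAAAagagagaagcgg
Kif23 (chr9:61946780-61946809, minus strand): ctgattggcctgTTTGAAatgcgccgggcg
Kif18b (chr11:102925104-102925133, minus strand): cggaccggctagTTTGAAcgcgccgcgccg
Kif20b (chr19:34922353-34922382, plus strand): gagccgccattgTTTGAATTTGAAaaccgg
Kif4 (chrX:100626072-100626101, plus strand): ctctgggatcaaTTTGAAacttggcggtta
Kif2c (chr4:117178858-117178887, minus strand): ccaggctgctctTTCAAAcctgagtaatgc
Kif14 (chr1:136467608-136467637, plus strand): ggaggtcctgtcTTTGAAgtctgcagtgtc
Kif1a (chr1:93082507-93082536, minus strand): tttgacagcctcTTTGAAcattgctcctaa
Kif26b (chr1:178529104-178529133, plus strand): tgggagaatttcTTTGAActcagttagcga
Kif27 (chr13:58355003-58355032, minus strand): AAatggctctgcTTTGAAacatgaaaggtt
The Kif23 match began at base 3 of the transcript and the Kif18b match at base 4, those of Kif11 and Kif15 began 19 bases before the start site and that of Kif22 17 bases before it. The Kif20b match began at base 8 and the Kif4 match at base 20 of the transcript. In Kif2c and Kif14 the match lay 103 and 228 bases before the start site, and in the transport gene Kif1a 44 bases before it. In Kif26b it lay 9 bases before the start site, and in the ciliary gene Kif27, with 3 matches in the window, the nearest lay 73 bases before it and the capitals at the left edge are the end of another. For Kif2c, Kif14, Kif1a and Kif27 the start site of the window lies well inside the gene span, not at its 5' end. The 5' ends of these spans are at 117182624, 136466301, 93102039 and 58364745. Of the mitotic genes with a window Kif2b and Kif18a had no match, and Kif2b had no m6A peak either, whereas Kif18a had the strongest of the class by enrichment. The CCAAT box, the only other motif searched, was in 7 of 11 mitotic, 1 of 8 transport and 5 of 8 ciliary genes. It was in 41.1% of all genes with a start window (37.4% of all start windows). These letters lie in the DNA around start sites, and no value of the m6A data bears on whether they are used.

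By their strongest peak, the transport kinesins Kif16b, Kif21a, Kif13b and Kif3c lay above the median of all genes, while the heavy chains of kinesin-1, a main carrier of axonal cargo, were the lowest of the class by that measure. With the log2 ratio of IP to input reads, 3 of 10 transport kinesins lay above the median of all genes. Kif16b, which moves early endosomes, led the class by enrichment, with a peak of 837 input reads and 3323 IP reads on chromosome 2 at 142707371 to 142739550. Its ratio was 3.97 (exact 95% interval 3.68 to 4.29) and its enrichment 4.19 in the authors' deposited table, and its other peak had 3.89 there. By the ratio Kif13b stood higher, at 4.70. Kif21a, a motor that also curbs microtubule growth in axons, had its strongest peak on 163 input reads and 478 IP reads, a ratio of 2.93 (exact 95% interval 2.45 to 3.52), with 4.01 in the authors' deposited table. Its relative Kif21b had peaks of 2.90 and 2.50, as the authors' deposited table lists them, the higher on 778 input reads and 2318 IP reads. Both Kif21b peaks lay at the 3' end, whereas the Kif21a peaks lay in the interior and, overlapping the predicted gene Gm52215, at the 5' end.

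Kif13b, which transports growth factor receptors and phosphoinositides, had a 125-base peak of 629 input reads and 2957 IP reads near the 3' end. Its ratio was 4.70 (exact 95% interval 4.31 to 5.13) and its enrichment 3.95 in the authors' deposited table, and an adjoining peak had 2.87 there. Kif13a, which moves recycling endosomes, had its strongest peak towards the 5' end of the gene, with 1156 input reads and 2651 IP reads, a ratio of 2.29 (exact 95% interval 2.14 to 2.46), and 3.07 in the authors' deposited table. The peaks towards the 3' end had 2.15 and then 1.81 in the authors' deposited table, with 4222 and 6348 input reads. The former held 5134 IP reads, a ratio of 1.22 (exact 95% interval 1.17 to 1.27). Thus the best covered peak of Kif13a was its weakest, with 5592 IP reads and a ratio of 0.881 (exact 95% interval 0.850 to 0.913). The kinesin-3 motors Kif1b and Kif1c, carriers of synaptic vesicle precursors, mitochondria and other vesicles, had their strongest peaks at 3.15 and at 2.50, as the authors' deposited table lists them. The Kif1c peak carried a second gene identifier. Kif1a, the neuronal member of that family, had no peak.

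Kif3c, a neuronal partner of the kinesin-2 motor, had the largest number of IP reads of any kinesin peak. On chromosome 12 at 3404314 to 3404588 it held 5744 input reads and 20483 IP reads, a ratio of 3.57 (exact 95% interval 3.46 to 3.67), and 3.80 in the authors' deposited table. A peak downstream of it, at 3405314 to 3405838, held 2463 input reads and 7066 IP reads, a ratio of 2.87 (exact 95% interval 2.74 to 3.005), and had 3.39 in the authors' deposited table. The peaks at the 5' end and in the interior were weaker, at 1.44 and at 2.57, as the authors' deposited table lists them, and the former rested on 30 input reads and 50 IP reads, a ratio of 1.67 (exact 95% interval 1.04 to 2.72). The interior peak held 900 input reads and 1556 IP reads, a ratio of 1.73 (exact 95% interval 1.59 to 1.88). Enrichment in Kif3c was thus highest at the 3' end, over which the lncRNA gene 1110002L01Rik also lies.

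By the strongest peak of each gene, the kinesin-1 heavy chains were the lowest of the transport class, although single weaker peaks lay in Kif3c and Kif13a. Kif5b, the ubiquitous heavy chain, held 2249 input reads and 1633 IP reads, a ratio of 0.726 (exact 95% interval 0.681 to 0.774), with an enrichment of 2.01 in the authors' deposited table. Kif5c, a neuronal heavy chain, held 346 input reads and 310 IP reads, a ratio of 0.896 (exact 95% interval 0.766 to 1.05), and 1.63 in the authors' deposited table, whereas the neuronal Kif5a had no peak. In both genes with a peak the IP reads were fewer than the input reads, as in 8 of all 58 kinesin peaks and 11.3% of all peaks. Such ratios are not corrected for depth and show no depletion.

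Of the ciliary kinesins Kif3a alone lay above the median of all genes. Kif3a and Kif3b are the motor subunits of heterotrimeric kinesin-2, which drives intraflagellar transport into the cilium. The strongest of 3 Kif3a peaks, on chromosome 11 at 53584292 to 53586855, held 79 input reads and 447 IP reads, a ratio of 5.66 (exact 95% interval 4.45 to 7.28), and 4.48 in the authors' deposited table, higher than 85.8% of genes with a peak. The next towards the 3' end held 257 input reads and 848 IP reads, a ratio of 3.30 (exact 95% interval 2.87 to 3.81), with 3.77 in the authors' deposited table. The last held 50 input reads and 257 IP reads, a ratio of 5.14 (exact 95% interval 3.78 to 7.11), with 4.25 in the authors' deposited table. All Kif3a peaks lay above the median of all genes, although the input reads were few.

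Its partner Kif3b differed in both respects. Kif3b had 5 peaks, the most of any kinesin, and the best covered of these, 132 bases on chromosome 2 at 153320692 to 153320823, held 7007 input reads and 7704 IP reads. Its ratio was 1.10 (exact 95% interval 1.06 to 1.14) and its enrichment 1.97 in the authors' deposited table. The strongest Kif3b peak lay near the 3' end at 153332081 to 153332205, with 1103 input reads and 3192 IP reads, a ratio of 2.89 (exact 95% interval 2.70 to 3.10) and 3.42 in the authors' deposited table. The intervals of the strongest Kif3a and Kif3b peaks did not overlap, but they cover counting error alone, and no replicate was there to test the difference of 1.06 in the authors' deposited table. The 3 remaining Kif3b peaks lay between 1.66 and 2.55 in the authors' deposited table. The longest, 29229 bases at the 5' side, held 372 input reads and 356 IP reads, a ratio of 0.957 (exact 95% interval 0.825 to 1.11). The peak at 153330231 held 691 and 729 reads, a ratio of 1.06 (exact 95% interval 0.949 to 1.17), and that at 153332331 held 1800 and 2852, a ratio of 1.58 (exact 95% interval 1.49 to 1.68).

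The Hedgehog regulator Kif7, which orders the tip of the cilium, had 4 peaks, the strongest at its 3' end with 402 input reads and 1449 IP reads, a ratio of 3.60 (exact 95% interval 3.23 to 4.04), and 3.35 in the authors' deposited table. That end overlaps the gene Ticrr. The others, in the interior, had between 1.86 and 2.60 in the authors' deposited table, with ratios of 1.70 (exact 95% interval 1.42 to 2.04), 2.23 (1.81 to 2.77) and 2.29 (1.81 to 2.90). Its relative Kif27 had no peak. Kif24, a depolymerase that restrains the start of cilium formation, had peaks of 3.36 and 3.34, as the authors' deposited table lists them, on 154 and 49 input reads. Their IP reads were 601 and 138, ratios of 3.90 (exact 95% interval 3.26 to 4.69) and 2.82 (2.02 to 3.99). Kif19a, which limits the length of motile cilia, held 46 input reads and 112 IP reads, with 2.64 in the authors' deposited table. Kif17, a homodimeric kinesin-2 motor of cilia and dendrites, had 4 peaks between 1.28 and 2.60 in the authors' deposited table. The strongest held 563 input reads and 1143 IP reads, a ratio of 2.03 (exact 95% interval 1.83 to 2.25), and the weakest, at the 3' end, 1755 and 1640, a ratio of 0.934 (0.873 to 1.0001). Between these lay peaks of 160 input reads and 274 IP reads, a ratio of 1.71 (exact 95% interval 1.40 to 2.09), and of 3693 and 3822, a ratio of 1.03 (0.989 to 1.08). All Kif17 peaks carried a second gene identifier, so their reads may belong in part to another gene. Kif6 and Kif9, kinesin-9 motors of motile cilia, had no peak.

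Outside these classes, the depolymerase Kif2a, which acts on spindles and on neurites, held 719 input reads and 1186 IP reads, with 3.49 in the authors' deposited table, close to the median of all genes. Kif26a, a kinesin without ATPase activity that acts in signalling, had the weakest kinesin peak by enrichment, with 216 input reads and 204 IP reads, a ratio of 0.944 (exact 95% interval 0.776 to 1.15), and 0.62 in the authors' deposited table. Its adjusted p of 0.0190 in the authors' deposited table was the largest of the 58 peaks. Kif26b, Kif12 and Kif28 had no peak.

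**Figure D3:**
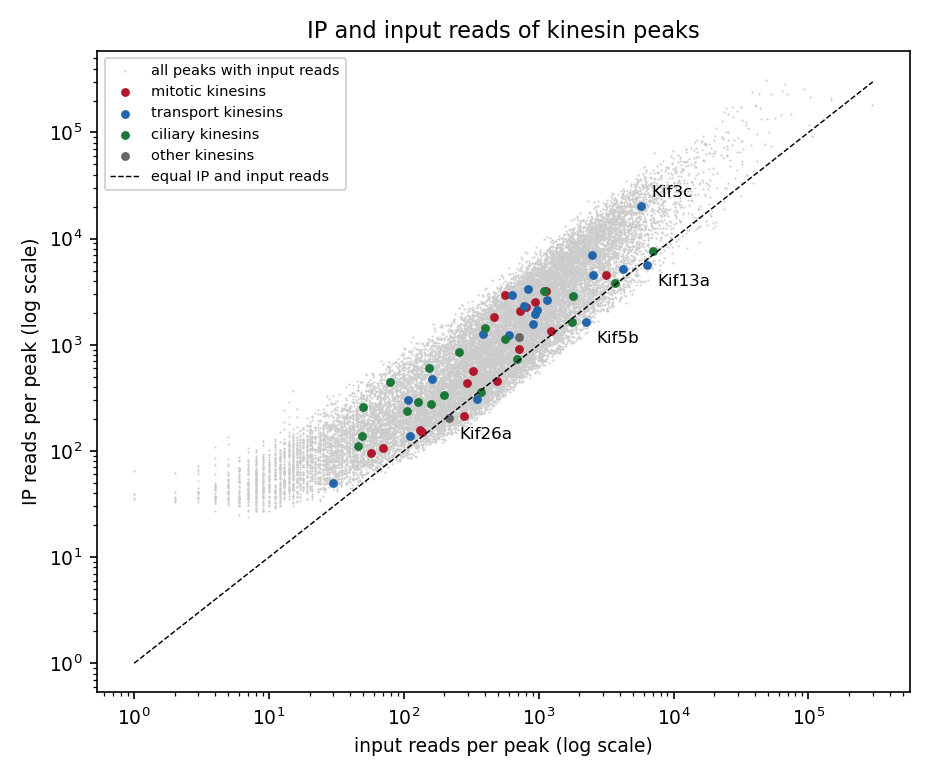
Each point is a peak, with input reads on the x axis and IP reads on the y axis (both log scales), grey for all peaks with input reads and coloured by class for the 58 kinesin peaks. The Kif3c peak with 20483 IP reads stands highest, and 8 kinesin peaks, among them those of Kif5b and Kif26a and the best covered peak of Kif13a, lie below the dashed line of equal reads.

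Kinesin peaks were most frequent at the 3' end of genes, as over all genes. Of the 58 peaks, 25 (43.1%) had their midpoint in the last 10% of the gene span, against 37% of all pairs of gene and peak. By class this was 11 of 20 transport, 8 of 19 ciliary and 5 of 17 mitotic peaks, differences that were not tested. The midpoint lay in the first 10% for 4 kinesin peaks (6.90%), those of Kif14, Kif18a, Kif21a and Kif3c, against 9.61% of all pairs, and for no ciliary peak. The long peaks of Kif22 and of the ciliary Kif3b also reached into the first 50 transcribed bases, but their midpoints lay further in. Of 18 kinesins with 2 or more peaks (50.6% of all genes with a peak had as many), 8 had the strongest in the last 10%, against 37.8% of all such genes. These were Kif3b, Kif3c, Kif7, Kif13b, Kif15, Kif20a, Kif21b and Kif24. In Kif3a, Kif14, Kif16b, Kif18a and Kif21a, the kinesins whose strongest peak was over 4, that peak lay elsewhere. Another Kif3a peak over 4, at 4.25 in the authors' deposited table, did lie in the last 10%.

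**Figure D4:**
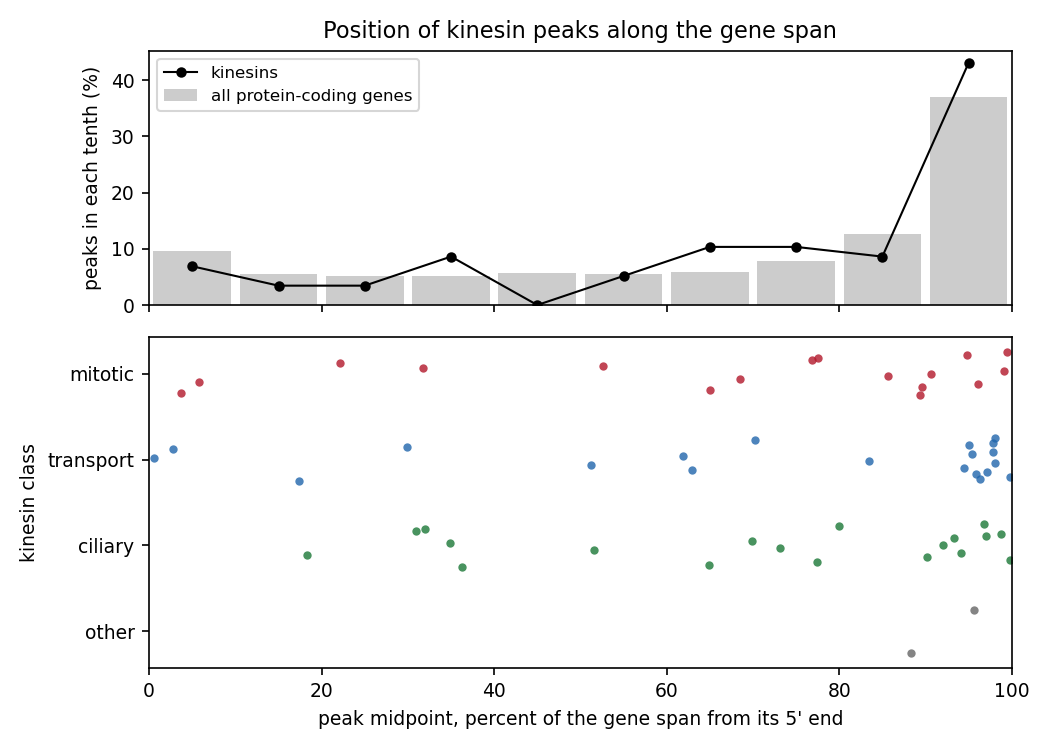
The upper panel gives the percent of peaks in each 10% of the gene span (x axis, percent of the span from its 5' end) as bars for all protein-coding genes and as points joined by a line for kinesins. The lower panel places the midpoint of each kinesin peak by class, spread vertically only to separate points, and 25 of 58 lie in the last 10%.

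Since a peak is written as a single block, one that crosses introns spans them. Over 10000 bases were spanned by 9 of the 58 kinesin peaks (15.5%), against 12.5% of all pairs of gene and peak. Transport kinesins, which have the longest genes (median 102 kb), held 6 of these 9 long peaks. The median of the 9 was 3.36 in the authors' deposited table, against 2.49 for the 26 kinesin peaks under 1000 bases. Over all genes the same medians were 3.36 and 2.82 in the authors' deposited table. The strongest peak also differed with the number of peaks. The 11 kinesins with a single peak had a median of 2.10 in the authors' deposited table, against 3.12 for all genes with a single peak, and the 12 with exactly 2 peaks had 3.46, against 3.63. The 2 kinesins with 3 peaks had 3.77, against 3.86, and the 4 with 4 or more peaks (10.9% of all genes with a peak had as many) had 3.38, against 4.12 for all such genes, in the authors' deposited table.

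Of 23 genes on the list of kinesin partners and of kinesins outside the symbol rule, 14 (60.9%) had a peak, against 44.2% of all protein-coding genes. Their median was 3.08 in the authors' deposited table, against 3.51 for all genes with a peak, and 6 of the 14 lay above the latter. The kinesin-1 adaptors Mapk8ip3 and Spag9 led with 5.11 and 4.97 in the authors' deposited table, the former on 8 input reads and 86 IP reads, followed by the spindle factor Tpx2 with 4.76 on 3735 input reads and 22115 IP reads. The kinesin-1 light chains, which couple the motor to cargo, mostly lacked a peak, as Klc1, Klc2 and Klc4 did. So did the kinesin-2 subunit Kifap3, the central spindle partners Ect2 and Prc1, Mapk8ip1, and the C-terminal kinesins Kifc2 and Kifc3. Motors that the choice by symbol left out had 3.60 for the kinetochore kinesin Cenpe and 4.13 for the spindle motor Kifc1 in the authors' deposited table. The C-terminal kinesin Kifc5b, also left out, had 1.92 there, below the median of all genes.

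Of 14 intraflagellar transport subunits, the cargo trains of the ciliary kinesins, 8 had a peak (57.1%, against 44.2% of all protein-coding genes), led by Ift74, Ift52 and Ift20 at 4.65, 3.65 and 3.07 in the authors' deposited table. Ift27, Ift80, Ift81, Ift88, Ift122 and Ift172 had none. The median of the 8 was 2.52 in the authors' deposited table, against 3.51 for all genes with a peak, and 2 of them lay above the latter. Of 7 subunits of cytoplasmic dynein, the motor of the opposite direction, 3 had a peak (42.9%, near the 44.2% of all protein-coding genes), namely Dync1i2, Dync1li2 and Dync1h1, at 2.56, 2.45 and 2.40 in the authors' deposited table. All 3 lay below the median of all genes, and Dync1i1, Dync1li1, Dync2h1 and Dync2li1 had no peak.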

How the data were processed

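One list of m6A peaks, pooled over libraries it does not name, was analysed. Without roles, STAR 2.5.2a, Trimmomatic 0.32, bcl2fastq 2.17.1.14 and the builds GRCm38.p6 and GRCh38.p13 come from the submitters' processing notes. How peaks were called and reads counted or pooled was not given in the sources used here. Per the file headers, the deposited counts are whole reads per peak in 1 input and 1 IP column, with sum or rounded mean over libraries left unstated. The deposited log2 fold changes, p-values and scores are the authors' own, and their normalization is not given. No header names the groups of the log2 fold change, which was taken as IP over input. Two-sided exact Clopper-Pearson 95% intervals of IP over input reads cover counting error only, since PCR reads are not independent molecules. RefSeq spans of GRCm38.p6 (no exons) were matched by position with Python 3.11.15, pandas 2.3.3 and SciPy 1.17.1, and the rule was tested on simulated data. Neighbouring genes' peaks can be credited to a gene by position. Of 24 kinesins with peaks and a RefSeq start window, the kept strand was that of the window in 24. Every kinesin was named, with reads and intervals for the 4 strongest of the mitotic, transport and ciliary classes, genes with 3 or more peaks and peaks with fewer IP than input reads, and in other lists the 3 strongest members and those without a peak. The members and lists were chosen with earlier results of these data known. Knockout and control were not compared, since no column carries a genotype, and classes were compared by counts and medians without a test. The closing section gives 10 alternatives.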

Additional observations from a re-analysis of the deposited data

Results flagged for a closer look

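Peaks on the strand opposite to a kinesin were not part of the kinesin values, and 4 such peaks met the overlap rule. They lay over Kif3a, Kif20a and Kif3c, 3 of the 29 kinesins with peaks, while 13.5% of all genes with a peak had one. Over the start of Kif3a a minus-strand peak in the lncRNA gene A430108G06Rik held 43 input and 164 IP reads. Over Kif20a a minus-strand peak in Cdc23 held 1420 input and 1233 IP reads and shared 683 bases with the Kif20a peak. Over the 3' end of Kif3c 2 minus-strand peaks lay within the span of the lncRNA gene 1110002L01Rik and faced the Kif3c peaks. The first held 172 input and 315 IP reads, 2.99% and 1.54% of the reads of the Kif3c peak it faced, with 250 bases shared. The second held 153 input and 191 IP reads, 6.21% and 2.70% of those of the Kif3c peak it faced. Whether these reads come from antisense RNA or from the facing transcript was not tested.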

How the results depend on the processing

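Of 67 recomputed values for the counts of genes with a peak, the class medians and the count of 3' peaks, 66 kept their direction. A plain count has no sign, so only the differences of medians could turn, and the 66 overstate how stable these were. The median of ciliary kinesins minus that of all genes turned from -0.16 to 0.026 with the log2 ratio of IP to input reads (pseudocount 0.5), and the cause was not tested. The same difference for all kinesins ranged from -0.47 to -0.04, for mitotic from -0.92 to -0.16 and for transport kinesins from -0.45 to -0.23. The mitotic difference was -0.25 with at least 100 input reads and -0.24 with a log2 fold change of at least 2. Genes with a peak numbered 25 to 30 for all kinesins. With the classes unchanged they numbered 9 to 11 for mitotic, 9 to 10 for transport and 5 to 6 for ciliary kinesins. Adding Kif2a to the mitotic class gave 12 genes with a peak in a larger class. Moving Kif3a and Kif3b to transport gave 12 in a larger transport class and 4 in a smaller ciliary class. Peaks in the last 10% of the gene numbered 20 to 25. No paired analysis was possible because the columns carry no replicate or genotype. Leaving out a library could not be done for the same reason.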

Other observations

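A further 3 peaks touched a kinesin by less than 50% of the shorter of peak and gene and were not credited to it. A minus-strand peak with 402 input and 711 IP reads shared 179 of its 750 bases with Kif28 and lay in Ahctf1. Another, with 89 input and 245 IP reads, lay in Cdc23 and shared 171 bases with Kif20a. The last, with 649 input and 1548 IP reads, lay in Mettl15 and shared 11 bases with Kif18a.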
